A study of Homo sapiens with 12 samples.

Results

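Surface ligands are the molecules by which a cell meets adhesion receptors, checkpoint receptors, complement and natural killer (NK) cells, and 10 of their genes were followed here: ICAM1, CD58, CD83, CD40, CD274, CD47, CD55, PVR, ULBP2 and MICA. They were chosen by name, for these roles, from the 19128 gene symbols of the deposited expression table, and 1 line was taken for each, the one with the highest mean. All 10 were found. RNA came from HT-29, a human colorectal adenocarcinoma line, and was selected for poly-A tails before sequencing. The treatment, TBZ, combined TNFα at 20 ng/mL with BV6 at 2 µM, an antagonist of inhibitor of apoptosis proteins, and zVAD-fmk at 30 µM, a caspase inhibitor. These agents together drive necroptosis, a lytic death carried out by the pseudokinase MLKL. The second experiment had 8 libraries, 2 in each of 4 groups: a line carrying an shRNA to GFP (shGFP), for which the labels give no gene knockdown, and a line in which MLKL was knocked down with lentivirus (shMLKL), each under DMSO or after 5 h of TBZ. The first experiment had 4 single libraries: parental HT-29 under DMSO or after 4 h of TBZ, and shMLKL cells under DMSO or after 12 h of TBZ. The labels do not say whether the shRNA lines are clones or pools, nor whether libraries of a group are separate cultures. The p-values therefore reflect only the spread between these libraries, which may be technical.

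Each of these genes codes for a protein that another cell or a serum protein reads at the plasma membrane. ICAM1 binds LFA-1 on leukocytes and CD58 binds CD2 on T and NK cells. CD83 and CD40 are best known from activated antigen-presenting cells, CD40 as the receptor for CD40 ligand. CD274 codes for PD-L1, which engages PD-1 on T cells, and CD47 binds SIRPα on phagocytes and restrains engulfment. CD55, also called decay-accelerating factor, takes apart the complement convertases. PVR (CD155) is read by DNAM-1 and TIGIT, and MICA and ULBP2 by the activating NK receptor NKG2D. TNFα signals through NF-kB, and ICAM1 is a textbook NF-kB target in epithelium.

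MLKL had 3.95 and 3.89 FPKM in untreated shGFP cells against 0.606 and 0.545 in untreated shMLKL cells (log2 difference −1.64, limma adjusted p = 9.87e-06). After TBZ it had 1.98 and 2.03 FPKM in shGFP cells and 0.651 and 0.395 in shMLKL cells. In the first experiment its FPKM over RefSeq transcripts was 6.31 in untreated and 6.16 in 4 h parental cells. It was 0.854 in untreated and 2.145 in 12 h shMLKL cells. FPKM is a fragment count scaled to transcript length and library size, and differences were tested on log2(FPKM + 1) with limma, with Benjamini-Hochberg (BH) adjustment over 10364 genes that reached a mean of 1 FPKM in at least 1 group. Read totals are unknown, and relative depth, estimated from the smallest values, was 82.9 to 100.0% of the deepest library. Of 10 epithelial markers 5 were at 1 FPKM or more in all 8 libraries, among them EPCAM at 313 to 393 FPKM, while the intestinal transcription factors CDX1 and CDX2 were at most 0.208 FPKM. KRT8 and KRT18 were listed at 0 in 7 libraries and at 694 and 535 FPKM in the eighth (shMLKL DMSO library 2), so an exact 0 in this table can be a failed estimate. Of 12 leukocyte markers 10 were below 1 FPKM in all 8 libraries and 4 (CD3D, CD3E, MS4A1 and CD1C) were listed at 0 in all of them, with PTPRC at most 0.0609 FPKM. The summed level of the 12 ran from 3.94 to 4.60 FPKM in shGFP DMSO, 5.60 to 5.63 in shGFP TBZ, 7.62 to 8.36 in shMLKL DMSO and 12.9 to 13.8 in shMLKL TBZ, and most of it was LAMP3. The part of that rise in the results was not tested. All 6 fibroblast and endothelial markers were below 1 FPKM in all 8 libraries.

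What TBZ did to the surface ligands was asked in each line by TBZ against DMSO, and whether the response differed between the shMLKL and shGFP lines by the difference of the effects. In shGFP cells 9 of the 10 genes rose, by 1.31-fold (PVR) to 87.0-fold (ICAM1) in mean FPKM. In shMLKL cells 7 rose and 2, CD55 and PVR, fell. CD40 did not reach the expression filter and was not tested. Among all genes tested, 19.1% were called higher and 37.3% lower in shGFP cells, and 20.0% higher and 17.6% lower in shMLKL cells (limma, BH-adjusted p under 0.05). CD83 passed the filter through its TBZ groups alone, so its rise follows in part from the filter. The 9 genes had a median log2 difference of 0.72 in shGFP cells, against −0.12 over all genes tested, and of 0.54 against −0.00 in shMLKL cells. Without CD83 the medians were 0.60 and 0.48. Of the genes called in shGFP cells, 33.9% were higher as deposited, 44.5% after equalising library medians and 40.0% after quantile normalization. A bulk library cannot tell a change in each cell from a change in the share of cells that carry the transcript.

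**Figure D1:**
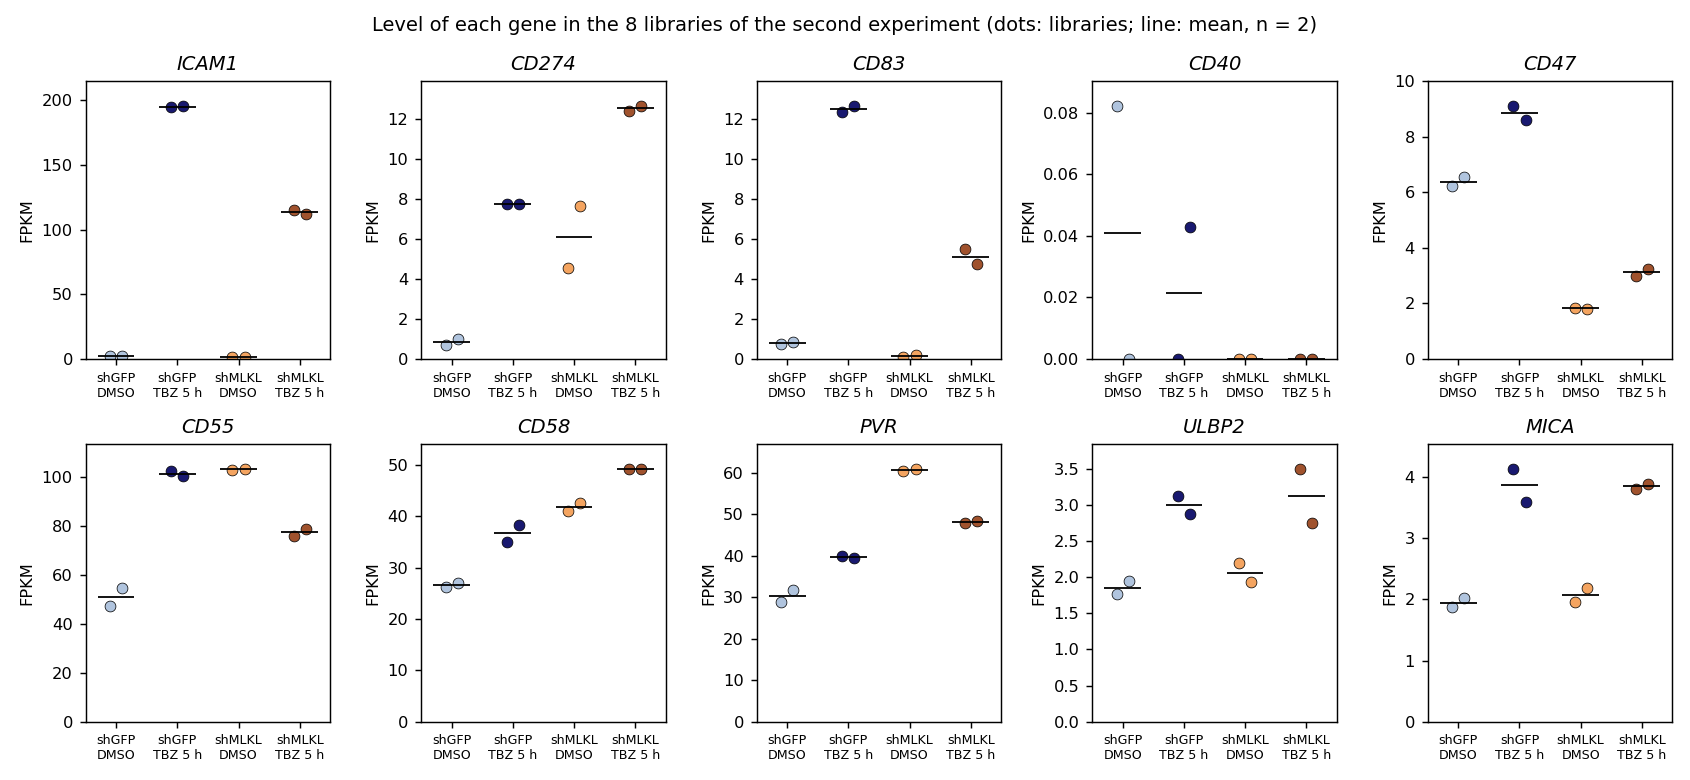
FPKM of each of the 10 genes (vertical axis, linear, a separate scale for each gene) in the 8 libraries of the second experiment, by group; dots are libraries and the line is the mean of 2. ICAM1 and CD83 are high only in the TBZ groups of this plot, CD274 and CD55 are already high in the shMLKL DMSO libraries (4.57 and 7.65 FPKM for CD274), and all CD40 values lie at or below 0.0821 FPKM.

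ICAM1, the LFA-1 ligand (hg19 chromosome 19, 10381517 to 10397291, forward strand), had the steepest response of the 10. It stood at 2.13 and 2.35 FPKM in untreated shGFP cells, 195 and 195 after TBZ, 1.71 and 1.19 in untreated shMLKL cells, and 115 and 112 after TBZ. Both TBZ groups lay far above both DMSO groups without overlap, and within each condition the shMLKL libraries lay below the shGFP libraries. The log2 difference with TBZ was 5.92 (SE 0.09, limma adjusted p = 1.23e-08) in shGFP cells and 5.55 (SE 0.09, adjusted p = 3.17e-08) in shMLKL cells. By size this was the second largest of 10364 differences in shGFP cells and the largest in shMLKL cells. The effects themselves differed by −0.37 (95% interval −0.66 to −0.07, limma adjusted p = 0.0789), which missed the threshold as deposited. The difference passed with library medians set equal (−0.46, limma adjusted p = 0.0407) and after quantile normalization (−0.58, adjusted p = 0.0143). Without shMLKL DMSO library 2 it was −0.52. It shrank to −0.28 with a pseudocount of 0.5 (limma adjusted p = 0.242) and to −0.17 with 0.1 (adjusted p = 0.565). Of 16 alternatives 13 left it uncalled, and its size depends on the pseudocount. After TBZ the shMLKL level was 1.72-fold lower than the shGFP level (log2 difference −0.77, SE 0.09, limma adjusted p = 0.000371).

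The genes whose course over the 8 libraries was most like that of ICAM1 were TNFAIP3, BIRC3 and NFKBIA. Likeness was the root mean square difference of log2(FPKM + 1) after each gene was centred on its own mean. These values were 0.62, 0.76 and 0.85. TNFAIP3, an A20 deubiquitinase gene, had group means of 0.815 FPKM in shGFP DMSO, 48.7 in shGFP TBZ, 0.634 in shMLKL DMSO and 30.5 in shMLKL TBZ. NFKBIA codes for IκBα and BIRC3 for cIAP2.

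CD58, the CD2 ligand (chromosome 1, 117057156 to 117113715, reverse strand), was well expressed at rest and moved little. Its values were 26.2 and 27.0 FPKM in untreated shGFP cells, 35.1 and 38.3 after TBZ, 41.1 and 42.6 in untreated shMLKL cells, and 49.2 and 49.2 after TBZ. The 4 groups did not overlap, and both shMLKL groups lay above both shGFP groups. CD58 rose with TBZ by 0.45 on the log2 scale in shGFP cells (SE 0.05, limma adjusted p = 0.000165) and by 0.23 in shMLKL cells (SE 0.05, adjusted p = 0.00712). The effects differed by −0.22 (95% interval −0.37 to −0.06, limma adjusted p = 0.0529), on the edge of the threshold, and the call was made with library medians set equal (−0.31, adjusted p = 0.0184), after quantile normalization (−0.22, adjusted p = 0.0425), without shGFP TBZ library 1 (−0.28, adjusted p = 0.0303) and with a replicate block (adjusted p = 0.0433). FLCN, WSB1 and RAPGEF2 had the most similar courses (root mean square differences 0.05, 0.05 and 0.06).

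CD83, a marker of mature dendritic cells (chromosome 6, 14117487 to 14137148, forward strand), went from under 1 FPKM to several. It stood at 0.771 and 0.865 FPKM in untreated shGFP cells, 12.3 and 12.6 after TBZ, 0.0885 and 0.223 in untreated shMLKL cells, and 5.48 and 4.74 after TBZ. The groups did not overlap, and the shMLKL libraries were the lower ones in both conditions. The log2 difference with TBZ was 2.89 in shGFP cells (SE 0.09, limma adjusted p = 2.73e-07) and 2.4 in shMLKL cells (SE 0.09, adjusted p = 1.59e-06). The difference of the effects was −0.49 (SE 0.13, limma adjusted p = 0.0343), but in mean FPKM the ratio was 15.2-fold in shGFP cells and 32.8-fold in shMLKL cells. With a pseudocount of 0.1 the difference of effects turned to 0.62 (limma adjusted p = 0.223), so its direction rests on the pseudocount added to resting values near 0. The call was also lost when any 1 of 6 libraries was left out (−0.52 to −0.40, limma adjusted p = 0.0689 to 0.102), those being every library but shMLKL DMSO library 1 and shMLKL TBZ library 1, and with a replicate block (adjusted p = 0.0519). CX3CL1, the membrane-bound chemokine fractalkine, and the cytokine gene IL17C followed the course of CD83 most closely, with IRAK2 next (root mean square differences 0.13, 0.18 and 0.28).

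CD40, the other gene of antigen-presenting cells (chromosome 20, 44746893 to 44758384, forward strand), was at 0.0821 and 0 FPKM in shGFP DMSO and at 0 and 0.0430 in shGFP TBZ. It was listed at 0 in all 4 shMLKL libraries. The first experiment also listed it at 0 in each of its 4 libraries.

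CD274, the gene of PD-L1 (chromosome 9, 5450503 to 5470567, forward strand), rose in both lines from different starting points. It stood at 0.722 and 1.02 FPKM in untreated shGFP cells, 7.76 and 7.76 after TBZ, 4.57 and 7.65 in untreated shMLKL cells, and 12.4 and 12.7 after TBZ. The shMLKL DMSO libraries spread widely and came close to the shGFP TBZ libraries, and the shMLKL TBZ libraries were the highest. The ratio of means with TBZ was 8.89 in shGFP cells (log2 difference 2.23, SE 0.18, limma adjusted p = 4.45e-05) and 2.05 in shMLKL cells (0.96, SE 0.18, adjusted p = 0.00491). The effects differed by −1.27 (95% interval −1.87 to −0.66, limma adjusted p = 0.0140), a call that was lost without shGFP DMSO library 1 (−1.15, adjusted p = 0.0604). Under DMSO the shMLKL level was 7.00-fold the shGFP level (log2 difference 1.89, SE 0.18, limma adjusted p = 9.55e-05), and after TBZ 1.62-fold (0.63, SE 0.18, adjusted p = 0.0225). This last call was lost when any 1 of the 4 TBZ libraries was left out (adjusted p = 0.0771 to 0.0871) and without the filter on low values (adjusted p = 0.0565). NCEH1 and SERPINB8 were among the genes with the most similar courses (root mean square differences 0.18 and 0.25).

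ICAM1, CD83 and CD274 had the largest rises among the 10, and the promoter windows below show their sequence before the start site. Windows of 300 bases, from 250 before to 50 after the start, were taken from RefSeq (GRCh38.p14) and found for 9 of the 10 genes, CD40 excepted. CD83 had 2 windows, one for each of 2 starts. The pattern GGNNNTTCC, which resembles the κB element bound by NF-kB, was searched on both strands and is shown in capitals. Only the 250 bases before the start are printed, 5′ to 3′ on the strand of the gene.
ICAM1, chr19:10270870-10271119, forward strand: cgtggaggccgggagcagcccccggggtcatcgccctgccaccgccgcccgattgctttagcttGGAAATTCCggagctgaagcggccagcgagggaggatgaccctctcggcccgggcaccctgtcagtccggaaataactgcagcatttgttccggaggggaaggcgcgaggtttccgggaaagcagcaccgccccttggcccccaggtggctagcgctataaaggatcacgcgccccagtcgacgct
CD83 upstream start, chr6:14117006-14117255, forward strand: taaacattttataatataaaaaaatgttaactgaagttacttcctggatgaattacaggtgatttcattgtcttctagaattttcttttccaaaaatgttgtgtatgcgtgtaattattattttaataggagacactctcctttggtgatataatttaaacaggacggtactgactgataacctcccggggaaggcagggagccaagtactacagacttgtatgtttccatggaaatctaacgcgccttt
CD83 downstream start, chr6:14117522-14117771, forward strand: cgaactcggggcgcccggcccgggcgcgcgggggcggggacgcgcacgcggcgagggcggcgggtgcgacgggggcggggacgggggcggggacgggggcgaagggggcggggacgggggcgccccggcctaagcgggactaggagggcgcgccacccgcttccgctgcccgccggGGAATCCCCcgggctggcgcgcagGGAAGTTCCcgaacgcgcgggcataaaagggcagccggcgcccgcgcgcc
CD274, chr9:5450292-5450541, forward strand: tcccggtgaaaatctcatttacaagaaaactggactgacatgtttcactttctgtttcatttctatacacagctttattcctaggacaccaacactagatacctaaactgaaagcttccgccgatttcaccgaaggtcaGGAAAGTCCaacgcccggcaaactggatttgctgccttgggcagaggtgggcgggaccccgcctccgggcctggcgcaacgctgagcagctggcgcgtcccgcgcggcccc
The ICAM1 match began 186 bases before the start and read the same pattern on both strands. CD83 had matches 74 and 50 bases before its downstream start and none at its upstream start, and CD274 had 1 match 111 bases before the start, on the opposite strand. CD58 had a match 81 bases before its start and PVR one after its start, at position 28, so 5 of the 9 genes held the pattern, as did 20.1% of all 35116 RefSeq windows. No match to these letters lay in the windows of CD55, CD47, MICA and ULBP2. TTCNNNGAA, the form of a STAT site, was found in ICAM1 and CD274 (75 and 125 bases before the start; 7.66% of all windows), without overlap with the capitals. GAAANNGAA, the form of an interferon response element, was found only in CD274 among the 9 (207 and 201 bases before the start, overlapping each other; 8.11% of all windows). A match is a description of letters and does not show binding.

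CD47, the SIRPα ligand (chromosome 3, 107761941 to 107809935, reverse strand), rose with TBZ. In the second experiment it differed more between the lines than with treatment. It stood at 6.23 and 6.54 FPKM in untreated shGFP cells, 9.09 and 8.60 after TBZ, 1.83 and 1.81 in untreated shMLKL cells, and 2.98 and 3.25 after TBZ. The 4 groups did not overlap, and even treated shMLKL cells lay below untreated shGFP cells. TBZ raised CD47 by 0.42 on the log2 scale in shGFP cells (SE 0.07, limma adjusted p = 0.00129) and by 0.54 in shMLKL cells (SE 0.07, adjusted p = 0.000557). The difference of the effects was 0.13 (95% interval −0.09 to 0.34, limma adjusted p = 0.347). Between lines the level was 3.50-fold lower in shMLKL cells under DMSO (log2 difference −1.39, SE 0.07, limma adjusted p = 4.43e-06) and 2.84-fold lower after TBZ (−1.26, adjusted p = 9.70e-06). SQRDL, GOT1 and PLCE1 had the most similar courses (root mean square differences 0.08, 0.11 and 0.12), all with lower levels in shMLKL than in shGFP cells under DMSO.

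CD55, which dismantles complement convertases (chromosome 1, 207494817 to 207534311, forward strand), was the clearest case of opposite responses. It stood at 47.3 and 54.7 FPKM in untreated shGFP cells, 103 and 100 after TBZ, 103 and 103 in untreated shMLKL cells, and 76.0 and 78.9 after TBZ. The untreated shMLKL libraries were as high as the treated shGFP libraries, and TBZ then moved the lines in opposite directions. CD55 rose 1.99-fold in shGFP cells (log2 difference 0.98, SE 0.06, limma adjusted p = 1.13e-05) and fell in shMLKL cells (log2 difference −0.41, SE 0.06, adjusted p = 0.00175). The effects differed by −1.39 (95% interval −1.60 to −1.19, limma adjusted p = 7.43e-05). Its closest courses were those of DNAJB1, a heat shock co-chaperone gene, SAT1, a polyamine acetyltransferase gene, and ARHGAP29 (root mean square differences 0.12, 0.12 and 0.13).

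PVR, the ligand of DNAM-1 and TIGIT (chromosome 19, 45147098 to 45169428, forward strand), showed a smaller version of the same pattern. It stood at 28.9 and 31.9 FPKM in untreated shGFP cells, 39.9 and 39.4 after TBZ, 60.3 and 60.9 in untreated shMLKL cells, and 47.9 and 48.3 after TBZ. The groups did not overlap, with shMLKL cells above shGFP cells in both conditions. PVR rose by 0.38 on the log2 scale in shGFP cells (SE 0.05, limma adjusted p = 0.000404) and fell by 0.33 in shMLKL cells (SE 0.05, adjusted p = 0.00138). The effects differed by −0.70 (95% interval −0.86 to −0.55, limma adjusted p = 0.000499). GTPBP2, INPP1 and PTPRH had the most similar courses (root mean square differences 0.03, 0.07 and 0.08).

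The NKG2D ligands ULBP2 and MICA responded alike in sign in both lines. ULBP2 (chromosome 6, 150263074 to 150270368, forward strand) stood at 1.77 and 1.94 FPKM in untreated shGFP cells, 3.12 and 2.88 after TBZ, 2.19 and 1.93 in untreated shMLKL cells, and 3.50 and 2.75 after TBZ. Its treated libraries all lay above its untreated ones, while the lines overlapped in both conditions. ULBP2 rose by 0.49 on the log2 scale in shGFP cells (SE 0.10, limma adjusted p = 0.00541) and by 0.42 in shMLKL cells (SE 0.10, adjusted p = 0.0154). The second of these calls was lost without shMLKL DMSO library 2 (0.36, adjusted p = 0.0840), without shMLKL TBZ library 1 (0.29, adjusted p = 0.0742) and in a fit of those 2 groups alone (adjusted p = 0.0553). RAET1L is a near-identical relative of ULBP2 and how reads shared by both were assigned is not stated, so the split between them is uncertain.

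MICA (chromosome 6, 31367561 to 31383092, forward strand) stood on 5 lines of the table, and the line used had 1.87 and 2.02 FPKM in untreated shGFP cells, 4.13 and 3.59 after TBZ, 1.95 and 2.18 in untreated shMLKL cells, and 3.81 and 3.88 after TBZ. The lines overlapped in both conditions and TBZ separated them from DMSO without overlap. MICA rose 1.98-fold in shGFP cells (log2 difference 0.72, SE 0.08, limma adjusted p = 0.000247) and 1.86-fold in shMLKL cells (0.66, SE 0.08, adjusted p = 0.000646). Summed over distinct lines it was 5.32 and 5.63, 10.9 and 11.4, 5.71 and 6.07, and 10.6 and 10.6 FPKM in the same order of groups, so the level depends on the choice of line and the rise does not. The difference of the effects was −0.06 for both genes (95% interval −0.41 to 0.28 for ULBP2 and −0.33 to 0.21 for MICA, limma adjusted p = 0.778 and 0.736), intervals that still leave room for differences of that size. The genes most like ULBP2 were LRIF1, P4HA2 and KATNA1, and those most like MICA were KDSR, FBXO33 and DDX60L, all at root mean square differences of 0.05 to 0.06.

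**Figure D2:**
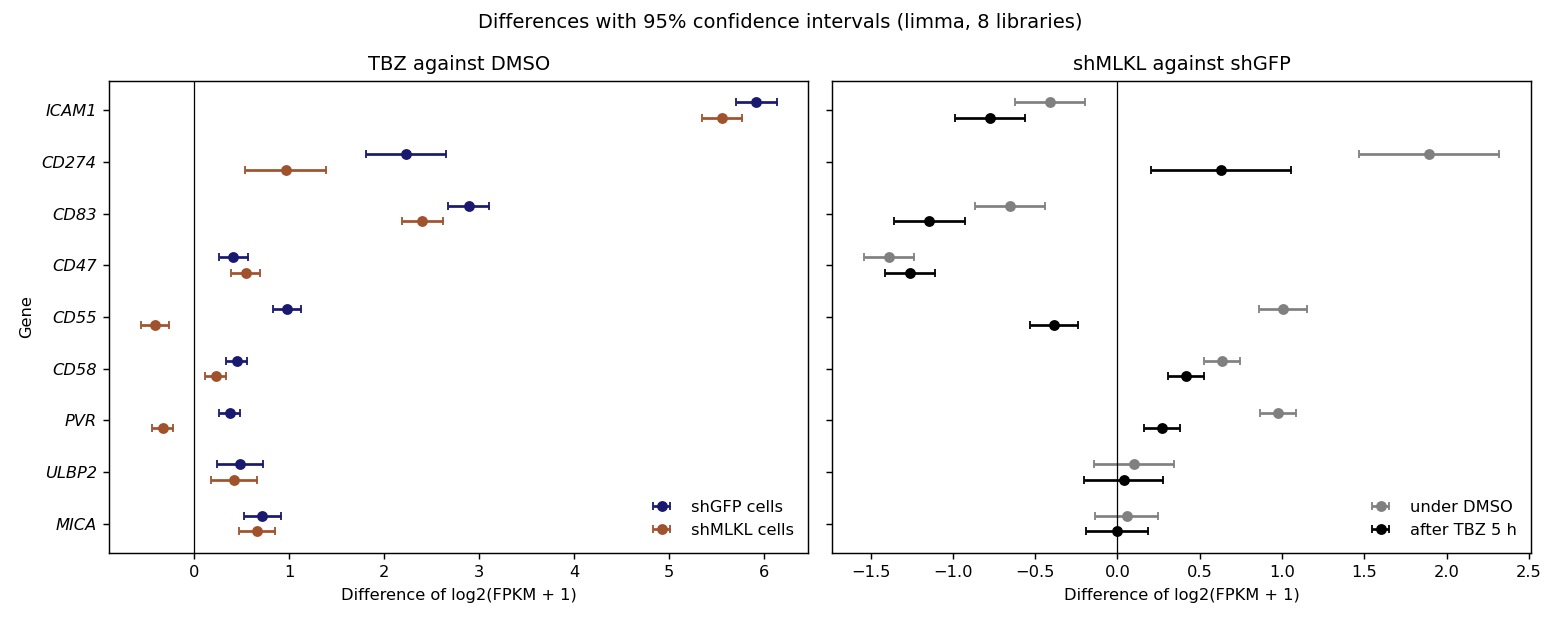
Differences of log2(FPKM + 1) with 95% confidence intervals for the 9 genes tested (limma, 8 libraries): TBZ against DMSO in each line on the left, and shMLKL against shGFP in each condition on the right. CD55 and PVR lie on opposite sides of 0 in the left panel (0.98 and −0.41 for CD55), and the CD55 line difference changes sign in the right panel.

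In the test of whether the response differed between lines, 4 of the 9 genes (CD274, CD83, CD55 and PVR) were called, all with the lower effect in shMLKL cells on the log2(FPKM + 1) scale. For CD83 that direction rests on the pseudocount: with 0.1 FPKM the difference turned to 0.62, and in mean FPKM its ratio was the larger one in shMLKL cells. Over all genes, 7.66% were called with a lower and 14.6% with a higher effect in shMLKL cells, and of those called 65.6% were higher as deposited, 38.9% after equalising library medians and 50.8% after quantile normalization. The median of the 9 was −0.37 against 0.10 over all genes. ICAM1, CD58, CD47, ULBP2 and MICA did not pass as deposited. With 1 library left out, 2 to 4 of the 9 were called, the 2 being without shGFP DMSO library 1, where 1314 of all genes were called against 2306 with all 8 libraries.

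The lines differed before any treatment. Under DMSO CD274, CD55, CD58 and PVR were higher in shMLKL than in shGFP cells, and ICAM1, CD83 and CD47 were lower. ULBP2 (log2 difference 0.10, 95% interval −0.14 to 0.34, limma adjusted p = 0.421) and MICA (0.06, −0.13 to 0.25, adjusted p = 0.567) did not pass as deposited. CD55 stood 2.02-fold higher (log2 difference 1.01, limma adjusted p = 1.24e-05), PVR 2.00-fold (0.98, adjusted p = 4.55e-06) and CD58 1.57-fold (0.63, adjusted p = 2.89e-05). CD83 was 5.25-fold lower in mean FPKM (log2 difference −0.66, limma adjusted p = 0.000576) and ICAM1 1.54-fold lower (−0.41, adjusted p = 0.00547). Over all genes 18.3% were called higher and 44.8% lower in shMLKL cells. The higher share among called genes was 29% as deposited, 53.1% after equalising library medians and 47.5% after quantile normalization, and the median of all genes moved from −0.16 to 0.01 and −0.02. With quantile normalization the ICAM1 call was lost (−0.16, limma adjusted p = 0.143) and ULBP2 and MICA were called higher (0.34 and 0.30, adjusted p = 0.0186 and 0.0170).

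After TBZ, 3 of the 9 (CD274, CD58 and PVR) were higher in shMLKL cells and 4 (ICAM1, CD83, CD47 and CD55) were lower. The background was 20.7% of all genes called higher and 31.0% lower, with 40.0% of called genes higher as deposited, 54.6% after equalising medians and 52.1% after quantile normalization. CD55 thus stood above shGFP cells at rest and below them after TBZ (log2 difference −0.39, SE 0.06, limma adjusted p = 0.00167). PVR and CD58 stayed above, by 0.27 (limma adjusted p = 0.00232) and 0.42 (adjusted p = 0.000317). CD83 was 2.44-fold lower (log2 difference −1.14, limma adjusted p = 5.90e-05).

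The first experiment gave a look at other times and at single transcripts, with 1 library a group and therefore no test. The deposited transcript lists hold an FPKM with an interval for each RefSeq transcript and for transcripts that Cufflinks assembled from the reads. ICAM1 (NM_000201) was at 2.53 FPKM (interval 2.22 to 2.84) in untreated parental cells and 231 (221 to 241) at 4 h. Untreated shMLKL cells had 4.09 (3.68 to 4.50), and the 12 h library 44.7 (42.5 to 46.8). The rise at 4 h is of the size seen at 5 h in the second experiment, and the 12 h library lies well below the 4 h library, although line and time differ between them.

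CD83 was spread over 3 RefSeq transcripts. In the 4 h library of parental cells, NM_001251901, which starts at the upstream site, had 8.24 FPKM (7.47 to 9.02), and NM_004233 and NM_001040280, which start 378 bases further on, had 1.95 and 1.26. At 12 h in shMLKL cells NM_001251901 had 0.410 (0.238 to 0.581) and NM_004233 0.547 (0.368 to 0.726), with NM_001040280 listed at 0. The RefSeq sum was 0.0803 FPKM in parental DMSO, 11.5 after 4 h, 0.155 in shMLKL DMSO and 0.956 after 12 h. The upstream start thus led clearly in the 4 h library, while at 12 h the 2 intervals overlapped. The RefSeq starts of the windows above lie 516 bases apart, so the downstream window need not be that of the deposited downstream transcripts.

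CD274 (NM_014143) was high in both treated libraries, at 9.71 FPKM (9.04 to 10.4) after 4 h and 13.3 (12.5 to 14.1) after 12 h. Untreated, it was at 0.940 in parental cells and 0.687 in shMLKL cells. The intervals of these 2 DMSO libraries, 0.745 to 1.13 and 0.534 to 0.840, overlap. The higher resting level of the shMLKL line in the second experiment thus has no counterpart between the DMSO libraries of the first, where the other line is parental rather than shGFP.

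PVR and CD47 moved most when assembled transcripts were counted. For PVR, RefSeq transcripts summed to 10.5 FPKM in parental DMSO, 78.6 after 4 h, 58.8 in shMLKL DMSO and 7.37 after 12 h. In the first and last of these libraries Cufflinks had put most of the gene into assembled transcripts, at 131 and 67.1 FPKM, that end 2720 and 2700 bases before the RefSeq end. Read from RefSeq transcripts alone, PVR would differ by 2.79 after 4 h and −2.84 after 12 h on the log2 scale. Weighting each transcript's FPKM by its length in kilobases and summing, which follows the amount of RNA from the locus whatever transcript it was given to, PVR came 414 and 461 FPKM × kb in parental cells (untreated, then 4 h) and 345 and 254 in shMLKL cells (untreated, then 12 h). On this scale, chosen after the values were seen, PVR was 1.11-fold higher after 4 h and 1.36-fold lower after 12 h.

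CD47 had 1 full-length RefSeq transcript, NM_001777, at 1.88 FPKM in parental DMSO, 2.82 after 4 h, 1.84 in shMLKL DMSO and 8.46 (7.90 to 9.02) after 12 h. Shorter assembled transcripts stood beside it in the treated libraries. After 4 h one of 1264 bases had 10.2 FPKM and ended 8484 bases before the RefSeq 3′ end. After 12 h 2 of 1214 and 1217 bases had 23.7 and 43.1 FPKM and ended 4096 bases before it. In the DMSO libraries the assembled transcripts, at 0.914 and 1.29 FPKM, ended 322 and 286 bases short. The length-weighted sums were 14.6, 28.0, 16.3 and 126 FPKM × kb in the order above. On this scale the 12 h library stood at 7.74-fold its DMSO library. Between the DMSO libraries these sums differed 1.12-fold, with the shMLKL library the higher. A single transcript entry held 88.4% of all FPKM in the shMLKL DMSO library and 83.3% in the 12 h library. Scaling between the libraries of the first experiment was not checked. In the second experiment shMLKL cells held 3.50-fold less CD47 than shGFP cells, but in FPKM without length weighting, so the measures differ.

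**Figure D3:**
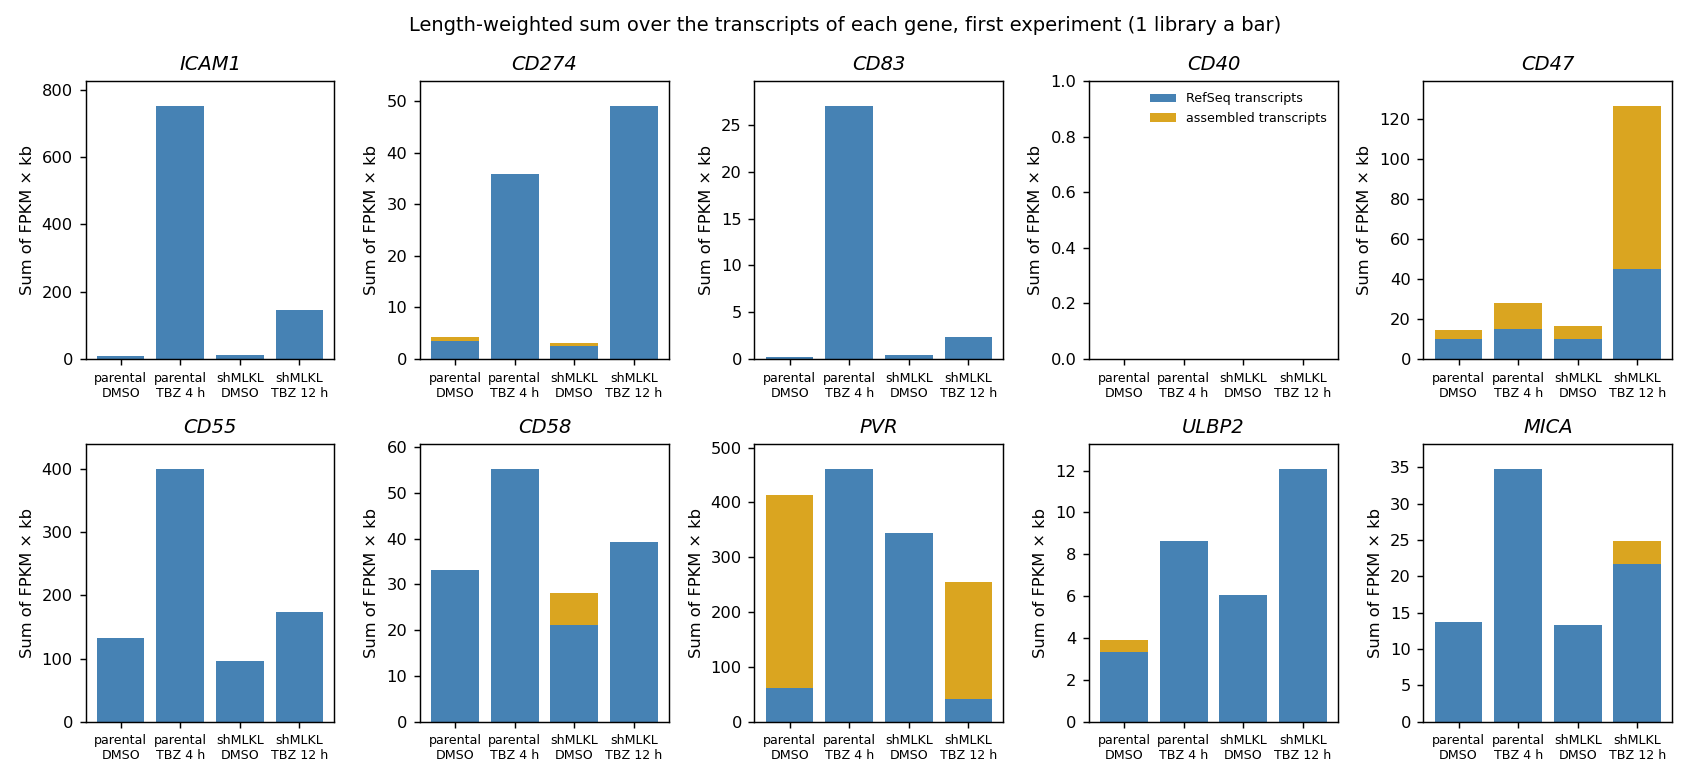
Length-weighted sums (FPKM × kb, linear axis from 0, a separate scale for each gene) in the 4 single libraries of the first experiment, split into RefSeq and assembled transcripts. Assembled transcripts make up most of PVR in the parental DMSO and shMLKL 12 h libraries and most of CD47 at 12 h. RefSeq transcripts hold 61.8 of 414 and 42.3 of 254 FPKM × kb in these libraries for PVR. CD40 is listed at 0 throughout.

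CD55 (NM_000574) was at 47.4 FPKM (45.0 to 49.8) in parental DMSO, 143 (137 to 149) after 4 h, 34.6 (32.8 to 36.4) in shMLKL DMSO and 53.3 (50.6 to 55.9) after 12 h. The shorter NM_001300902 was seen only in the 12 h library, at 14.4 (13.1 to 15.7). The 12 h library of shMLKL cells lay above its DMSO library, while after 5 h in the second experiment the shMLKL line had less CD55 than under DMSO. Its resting level was lower in shMLKL than in parental cells, again unlike the second experiment's comparison with shGFP cells.

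CD58 and the NKG2D ligands were higher in the treated library of each pair. CD58 summed over RefSeq transcripts was 28.0 and 46.6 FPKM in parental cells and 17.9 and 34.1 in shMLKL cells. The shMLKL DMSO library also held an assembled CD58 transcript at 5.17 FPKM, with which the log2 difference after 12 h went from 0.90 to 0.55, and to 0.47 on length-weighted sums. ULBP2 (NM_025217) was at 2.38 (1.86 to 2.89) and 6.14 (5.37 to 6.90) in parental cells, and at 4.29 (3.69 to 4.89) and 8.58 (7.69 to 9.46) in shMLKL cells. MICA was carried mainly by NM_001177519, at 9.76 (8.72 to 10.8) and 24.9 (23.1 to 26.6) in parental cells and at 8.25 (7.32 to 9.19) and 13.4 (12.1 to 14.6) in shMLKL cells. The DMSO and treated intervals of ULBP2 and of this MICA transcript did not overlap in either line.

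Counted over RefSeq sums, 7 of the 10 genes were at least 2-fold higher after 4 h on log2(FPKM + 1), against 3.84% of 25342 genes higher and 5.58% lower. After 12 h in shMLKL cells 3 of 10 (ICAM1, CD274 and CD47) were at least 2-fold higher and 1 (PVR) lower, against 3.90% and 4.54%. On length-weighted sums 5 of 10 were higher after 4 h (ICAM1, CD274, CD83, CD55 and MICA) and 4 after 12 h (ICAM1, CD274, CD83 and CD47), and 0 were lower. The backgrounds on that scale were 3.52% higher and 6.37% lower after 4 h, and 3.63% higher and 4.45% lower after 12 h. The 25342 genes were not filtered on expression, and those below 1 in both libraries cannot reach 2-fold on these scales. The background shares are therefore lower than they would be among expressed genes. PVR is among the 7 on RefSeq sums, and its 2.79 turned to −0.84 when assembled transcripts were added. These counts compare single libraries, not conditions.

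The wider families of these ligands were followed in 5 lists taken from general knowledge, 68 genes with the 10 included, of which 41 passed the expression filter. Without the 10 genes, 32 of 58 passed, and 10 of these reached 1 FPKM only in a TBZ group, so that a rise in them follows in part from the filter. Of the 32, 19 rose and 2 fell in shGFP cells, and 16 rose and 2 fell in shMLKL cells, with medians of 0.28 and 0.27 on the log2 scale against −0.12 and −0.00 over all genes. Of the 22 that reached a mean of 1 FPKM under DMSO in at least 1 line, 11 rose and 2 fell in shGFP cells and 9 rose and 2 fell in shMLKL cells, with medians of 0.11 and 0.12. The shares called over all genes were 19.1% higher and 37.3% lower in shGFP cells, and 20.0% and 17.6% in shMLKL cells, and the counts of the lists that follow are to be read against them. In the test between effects 2 of the 32 were higher and 8 lower in shMLKL cells, against 14.6% and 7.66% of all genes. Of the 22, 1 was higher and 5 were lower.

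Among adhesion ligands, ICAM4, an erythroid family member that lies next to ICAM1, rose from 0.0264 ± 0.0373 to 14.2 ± 1.14 FPKM (SD, n = 2) in shGFP cells and from 0.0483 ± 0.0683 to 2.02 ± 0.476 in shMLKL cells. It passed the filter through its TBZ groups alone. Its log2 differences were 3.89 and 1.52 (limma adjusted p = 2.63e-07 and 7.29e-05), and the effects differed by −2.37 (adjusted p = 0.000137). Cufflinks placed ICAM1 and ICAM4 in 1 locus in both TBZ libraries of the first experiment, and reads that run from one into the other cannot be assigned here. VCAM1, the VLA-4 ligand, rose in shGFP cells from 0.0199 ± 0.0281 to 1.71 ± 0.296 FPKM (log2 difference 1.41, limma adjusted p = 4.94e-05) and had a log2 difference of 0.27 in shMLKL cells (adjusted p = 0.106). VCAM1 passed the filter only through the shGFP TBZ group, where it was high. Of the 9 adhesion genes tested 6 rose and 1 fell in shGFP cells, and 4 rose and 1 fell in shMLKL cells. Of the 6 that reached 1 FPKM under DMSO, 4 rose and 1 fell in shGFP cells, and 3 rose and 1 fell in shMLKL cells. The gene that fell was CD44, a hyaluronan receptor, in both lines. In shGFP cells it went from 65.8 ± 1.97 to 53.3 ± 1.86 FPKM (log2 difference −0.30, limma adjusted p = 0.000753). In shMLKL cells it had −0.15 (limma adjusted p = 0.0300), and the difference of effects was not called (0.15, adjusted p = 0.105).

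Among checkpoint and B7 family genes 7 of 12 tested rose and 0 fell in shGFP cells, and 7 rose and 1 fell in shMLKL cells. Of the 9 that reached 1 FPKM under DMSO, 5 rose in shGFP cells and 4 rose and 1 fell in shMLKL cells. Besides CD274 only ICOSLG, the ligand of ICOS on T cells, reached a log2 difference of 1. It went from 0.610 ± 0.144 to 3.75 ± 0.232 FPKM in shGFP cells and from 0.253 ± 0.0376 to 3.18 ± 0.0340 in shMLKL cells (log2 differences 1.56 and 1.74, limma adjusted p = 6.55e-06 and 7.61e-06), and it passed the filter through its TBZ groups alone. Under DMSO 9 of the 12 were lower in shMLKL cells and 2, CD274 and VSIR, were higher, against 44.8% lower and 18.3% higher over all genes, a split that moved with the scaling as given above. PDCD1LG2, the gene of PD-L2, did not reach the filter.

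The list of TNF family and activation molecules had 4 genes tested, CD83, TNFSF9, TNFSF15 and TNFRSF9, and all 4 rose in shGFP cells. All but TNFSF15 passed the filter through TBZ groups alone, TNFSF9 through that of shGFP cells. TNFSF9, the 4-1BB ligand, rose from 0.140 ± 0.0363 to 1.90 ± 0.132 FPKM in shGFP cells (log2 difference 1.34, limma adjusted p = 4.84e-05) and had 0.29 in shMLKL cells (adjusted p = 0.0812). TNFRSF9, its receptor 4-1BB, rose in both lines, by 0.97 and 1.52 (limma adjusted p = 8.37e-05 and 1.50e-05), with a difference of effects of 0.55 on the log2(FPKM + 1) scale (adjusted p = 0.0208). In mean FPKM the order was the opposite, 39.9-fold in shGFP cells (0.0253 to 1.01 FPKM) and 35.8-fold in shMLKL cells (0.0571 to 2.04). TNFSF15 rose by 1.01 and 0.33 (limma adjusted p = 1.44e-05 and 0.00660).

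Among NK receptor ligands 8 of 11 rose and 0 fell in shGFP cells, and 6 rose and 1, PVR, fell in shMLKL cells. Of the 10 that reached 1 FPKM under DMSO, 7 rose in shGFP cells and 5 rose and 1 fell in shMLKL cells. RAET1L, the relative of ULBP2, rose from 3.63 ± 0.101 to 9.46 ± 0.0462 FPKM in shGFP cells and from 4.09 ± 0.330 to 8.30 ± 0.419 in shMLKL cells (log2 differences 1.17 and 0.87, limma adjusted p = 6.06e-06 and 5.67e-05). ULBP1 had log2 differences of −0.02 and 0.00 (limma adjusted p = 0.859 and 0.993), while ULBP3 rose by 0.63 and 0.76 (adjusted p = 0.000230 and 0.000148). NECTIN2, the relative of PVR read by the same receptor DNAM-1, rose by 0.28 in shGFP cells (limma adjusted p = 0.000486) and had −0.08 in shMLKL cells (adjusted p = 0.137), with a difference of effects of −0.35 (adjusted p = 0.00338).

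Of the complement shield genes 5 passed the filter, and 3 rose and 1 fell in each line. Of the 4 that reached 1 FPKM under DMSO, 2 rose and 1 fell in each line. CD59, which blocks the membrane attack complex, rose from 25.5 ± 1.23 to 62.9 ± 0.561 FPKM in shGFP cells and from 46.1 ± 0.208 to 59.5 ± 0.586 in shMLKL cells (log2 differences 1.27 and 0.36, limma adjusted p = 2.58e-07 and 0.000351). The effects differed by −0.91 (limma adjusted p = 6.24e-05). CD46, a cofactor for cleavage of C3b, had 0.06 in shGFP cells (limma adjusted p = 0.175) and rose by 0.11 in shMLKL cells (adjusted p = 0.0379). CD46, CD55 and CD59 were all higher in shMLKL than in shGFP cells under DMSO, by 0.58, 1.01 and 0.83 on the log2 scale (limma adjusted p = 1.11e-05, 1.24e-05 and 4.47e-06).

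**Figure D4:**
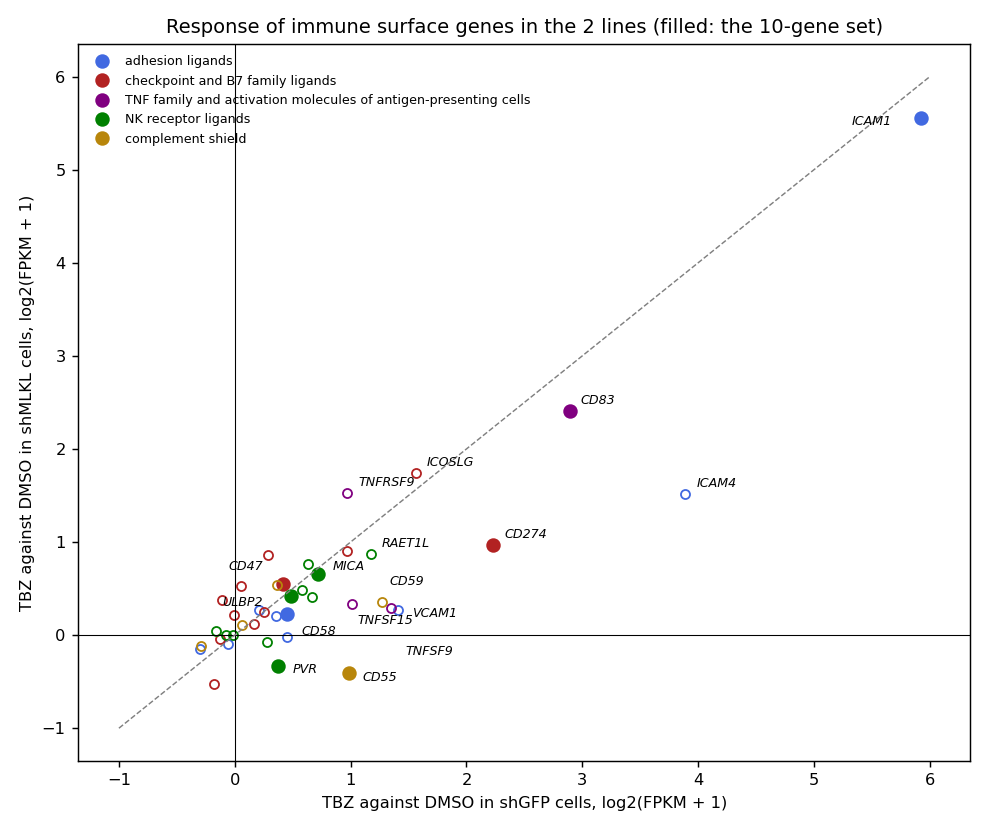
Response to TBZ of the 41 immune surface genes tested, as differences of log2(FPKM + 1), in shGFP cells (horizontal) and in shMLKL cells (vertical); filled points are the 9 tested genes of the set, open points the other list genes, and the dashed line marks equal responses. ICAM1 lies at 5.92 and 5.55, and CD55 and PVR lie below the horizontal axis.

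The transcription factors of NF-kB and interferon signalling were followed as a further list. Whether they act on the ligand genes in these cells was not tested. Of 12 tested, 10 rose and 1 fell in shGFP cells, and 10 rose and 0 fell in shMLKL cells, where the shares higher over all genes were 19.1% and 20.0%. All 12 reached 1 FPKM under DMSO in at least 1 line. NFKB1, NFKB2, RELB, REL and IRF1 rose by 2.24 to 3.04 in shGFP cells and by 1.86 to 3.07 in shMLKL cells, for example NFKB2 from 9.95 to 89.1 FPKM in shGFP cells and from 9.40 to 86.4 in shMLKL cells. IRF9 fell in shGFP cells (log2 difference −0.42, limma adjusted p = 0.00161). Of 7 tested enzymes and partners that shed, modify or stabilise these ligands, 1 rose and 1 fell in shGFP cells and 2 rose in shMLKL cells, shares near those over all genes for a rise (19.1% and 20.0%). ADAM17, a sheddase, rose by 0.53 and 0.23 (limma adjusted p = 0.000111 and 0.0109). CMTM6, which keeps PD-L1 at the membrane, had 0.11 in shGFP cells (limma adjusted p = 0.0525) and rose by 0.25 in shMLKL cells (adjusted p = 0.00282). Its difference of effects was not called (0.14, limma adjusted p = 0.133). CMTM4 was the gene that fell in shGFP cells (−0.16, limma adjusted p = 0.0490).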

How the data were processed

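Poly-A RNA of 12 HT-29 libraries was sequenced as 100 nt paired reads from a stranded kit, per the labels' protocols. STAR 2.4.0f1, TopHat2 2.0.13, GATK and Cufflinks 2.2.1 were used with hg19, per the submitters' processing notes, with no stated role. The authors deposited 1 table for the second experiment, whose header names no unit; its values were taken as FPKM. For the first experiment the deposited Cufflinks lists give FPKM with an interval for each transcript, the other values in those files being left aside. No counts were used, so precision rests on how many libraries there are. The 10 genes, the lists and the tests were chosen with earlier results of these data known.

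Log2(FPKM + 1) was fitted with limma 3.58.1 in R 4.3.3 over the 8 libraries (a mean for each group, trended empirical Bayes with 4 residual and 3.46 prior degrees of freedom, two-sided). The filter was a mean of 1 FPKM in at least 1 group. Genes were called at a BH-adjusted p under 0.05. Intervals of differences are 95% and unadjusted. Named genes were the 10; list genes called with a log2 difference of at least 1 in either TBZ comparison; the 3 genes nearest to each of the 10; and MLKL. 1 of the nearest genes is not reported here. CD44, CD46, VSIR, PDCD1LG2, ULBP1, ULBP3, NECTIN2, IRF9, ADAM17, CMTM4 and CMTM6 lie outside that rule and were chosen after their values were seen. Data were simulated for TBZ against DMSO in shGFP cells, with 200 of 10364 genes changed. The fit recovered 70% at a log2 change of 0.5 and 95% at 1. The changed genes were drawn above a level that ICAM1, CD83, CD274, ULBP2 and MICA do not reach in untreated shGFP cells. Spreads were also shuffled over genes, so these rates need not hold for genes at such low levels. Assembled transcripts were given to a gene where their locus held RefSeq transcripts of that gene alone. Those of loci shared by several genes were left out, so the ICAM1 sums of the TBZ libraries of the first experiment may be incomplete. Promoter windows came from RefSeq (GRCh38.p14), and figures were drawn with matplotlib 3.10.9.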

Additional observations from a re-analysis of the deposited data

Results flagged for a closer look

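The response to TBZ differed between the lines for 4 of the 9 genes tested, by the test of the difference itself, and each had the lower effect in shMLKL cells on the log2(FPKM + 1) scale, as did 7.66% of all genes. The values were −1.27 for CD274 (SE 0.26, limma BH-adjusted p = 0.0140), −0.49 for CD83 (SE 0.13, limma BH-adjusted p = 0.0343), −1.39 for CD55 (SE 0.09, limma BH-adjusted p = 7.43e-05) and −0.70 for PVR (SE 0.07, limma BH-adjusted p = 0.000499). The CD83 direction rests on the pseudocount: it turned to 0.62 with 0.1 FPKM, 6 of 16 alternatives kept the call, and the ratio of mean FPKM was 15.2 in shGFP cells and 32.8 in shMLKL cells. For CD55 and PVR both libraries of each treated group moved up in shGFP cells and down in shMLKL cells. CD274, CD55 and PVR started higher in shMLKL cells under DMSO, and CD83 started lower.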

How the results depend on the processing

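Member differences of the second experiment were recomputed 746 times under an alternative. A change of sign counted as a turn only where either fit made a call. Uncalled differences could change sign without being counted, as the MICA difference of effects did (−0.22 to 0.02). Of the 746, 716 stayed on their side of the threshold, 19 lost the call, 10 gained it and 1 turned. That 1 was the CD83 difference of effects with a pseudocount of 0.1 (0.62, limma BH-adjusted p = 0.223). It also lost its call with a pseudocount of 0.5 (−0.20), without a filter, and without any 1 library other than shMLKL DMSO library 1 or shMLKL TBZ library 1. The number of genes called for the difference of effects was 1314 to 1690 with 1 library left out, and the members called 2 to 4; such fits hold fewer libraries and assume that a lone library varies like the other groups. Same-numbered libraries deviated together at correlations of −0.066 to 0.0282 over 6 pairs of groups, so no large shift shared by number was seen. The labels do not say what the numbers mark. With a replicate block 5711, 3714, 2062, 6450 and 5222 genes were called in the 5 comparisons, and 9, 9, 4, 7 and 7 members; the CD83 difference of effects missed the threshold (adjusted p = 0.0519) and that of CD58 passed it (0.0433). Without a filter the CD274 difference between lines under TBZ was also lost (0.63, adjusted p = 0.0565). In the first experiment a pseudocount of 0.1 FPKM moved the genes past 2-fold to 4218 after 4 h and 3758 after 12 h, from 2389 and 2139, since low values then weigh more. PVR turned from 2.79 to −0.84 after 4 h and from −2.84 to 0.33 after 12 h when assembled transcripts were added to RefSeq ones. Without counts, depth sets no limit that can be given for CD40 or for resting CD83.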

Other observations

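The higher CD274 and CD55 and the lower CD47 of untreated shMLKL cells were seen against shGFP cells in the second experiment. Against parental cells in the first, on length-weighted sums, the untreated shMLKL library held 0.734 of the parental CD274, 0.730 of the CD55 and 1.12 of the CD47. PVR and CD58 were at 0.833 and 0.848 of the parental value, where the second experiment had 2.00-fold and 1.57-fold higher means than shGFP. Each value of the first experiment is 1 library, and both the reference line and the measure differ between the experiments. The difference between them was not tested.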
